A study of Drosophila melanogaster with 15 samples.

Results

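A set of 152 Drosophila melanogaster genes that were deposited under CG numbers alone was lower in eye discs with each of 3 coactivator constructs that bind TEAD proteins than in control discs. CG numbers are the identifiers that the fly genome annotation gives to predicted genes before they are named. The 152 genes were chosen from 4771 tested genes with such symbols (3.19%), and 3.25% of all tested genes met the same thresholds. The values that chose them were those of the control libraries and of the 9 libraries of Monosiga Yap-TBD, Yki S168A and Trichoplax Yap S81A, on the scale log2(FPKM + 1), where FPKM is a fragment count scaled to the length of the transcript and the size of the library. Each of the 3 group means had to lie at least 0.8 below the control mean, and the highest of the 9 libraries had to lie below the lowest control library. The differences of these 3 groups from the control are therefore given as a description with no test.

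Yki, and Yap in other animals, are transcriptional coactivators that the kinases of the Hippo pathway keep out of the nucleus. They carry no DNA-binding domain and reach their target genes through TEAD-family proteins, of which Scalloped is the fly member. In the third-instar eye disc, the GMR enhancer is active behind the morphogenetic furrow, where cells leave the cell cycle and become photoreceptors, cone cells and pigment cells. Active Yki in these cells is known for extra cell division.

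Polyadenylated RNA was measured in 15 libraries, 3 in each of 5 groups. All larvae carried GMR-Gal4 and UAS-eGFP, and the control carried nothing more. The other groups added UAS-MonosigaYAP (Yap of a choanoflagellate), UAS-MonosigaYAP+HumanTBD (the same protein joined to a human TEAD-binding domain), UAS-DrosophilaYKI S168A or UAS-TrichoplaxYAP S81A (Yap of a placozoan). These are called Monosiga Yap, Monosiga Yap-TBD, Yki S168A and Trichoplax Yap S81A here. The labels give normal eyes for the control and differentiation defects for the other 4 groups. They add strong ectopic proliferation for Monosiga Yap-TBD and Trichoplax Yap S81A, and a middle degree of it for Yki S168A. Each library pooled the GFP-positive domain of 25 to 30 discs, cut out by surgery. The labels give 3 extractions per genotype and no separate crosses, so a p-value measures the spread between these extractions. In a bulk sample, fewer cells of a type and less RNA per cell cannot be told apart.

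Depth, estimated from the values, ran from 11.95 M (Monosiga Yap-TBD replicate 2) to 20.55 M fragments (Yki S168A replicate 3). In the shallowest library about 23.9 fragments stand behind an FPKM of 1 for a transcript 2000 bases long. Trichoplax Yap S81A replicate 1 stood apart: its 6 fat body genes summed to 4816 FPKM, against 1.28 to 57.1 FPKM in the other 14 libraries. Without that library the same rule gave 153 genes, of which 142 were among the 152. The markers of the labelled tissue were present in every library, with elav, a neuronal gene, between 12.7 and 58.6 FPKM, while the muscle myosin gene Mhc never passed 0.332 FPKM. The yki transcript was high only where the Yki construct was present, at 695.5, 706.2 and 408.3 FPKM in Yki S168A replicates 1, 2 and 3, against 66.8 FPKM in the lowest library of all and a control mean of 85.1.

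The 152 genes were mostly of moderate level. Their median control mean was 11.5 FPKM, with a range from 2.13 to 420.6 FPKM, and 85 of them reached 10 FPKM. With Monosiga Yap, which the rule did not use, the median was 10.6 FPKM. It was 2.503 FPKM with Monosiga Yap-TBD, 4.42 with Yki S168A and 3.96 with Trichoplax Yap S81A. Under 1 FPKM lay 27, 9 and 13 of the genes in these 3 groups, 1 with Monosiga Yap and 0 in the control. Within a gene the control libraries varied by a median of 18.1% of their mean (SD over mean).

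The difference from the control was largest with Monosiga Yap-TBD in 125 of the 152 genes, with Yki S168A in 14 and with Trichoplax Yap S81A in 13. The median gene was 4.43-fold lower than the control with Monosiga Yap-TBD, 2.51-fold lower with Yki S168A and 2.82-fold lower with Trichoplax Yap S81A. A level at least 4-fold lower was found for 90, 16 and 31 genes. Limma, fitted across all 9213 tested genes, called 150, 142 and 140 of the members lower in the 3 comparisons, against backgrounds of 12.0%, 6.52% and 6.09% of all tested genes called lower. Nothing is read from these counts, since the rule used the same contrasts. Just inside the threshold were CG14591, CG5928 and CG3893, whose weakest differences from the control were -0.80, -0.81 and -0.81 on the log2(FPKM + 1) scale. Just outside were CG8965, CG31176 and CG40498, at -0.80, -0.80 and -0.79.

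The rule fixes the sign of the differences in the 9 construct libraries, and the libraries of a group varied in their size. The median of the 152 log2 differences from the control mean was -1.85, -1.75 and -1.62 in Monosiga Yap-TBD replicates 1, 2 and 3. It was -1.20, -0.96 and -1.34 in the Yki S168A libraries and -1.36, -1.22 and -1.29 in the Trichoplax Yap S81A libraries. In the Monosiga Yap libraries it was -0.22, -0.07 and -0.03, and the median over all tested genes stayed between -0.08 and 0.09 in every library. Yki S168A replicate 2 was the highest of its group for 97 members (63.8%, against 24.4% of all tested genes), and replicate 3 was the lowest for 89 (58.6%, against 29.9%). Replicate 3 also had the lowest yki level of that group, and its part in the members' levels was not tested. Uneven ranks were not particular to Yki S168A. Monosiga Yap replicate 1 was the lowest of its group for 93 members (61.2%, against 33.8% of all tested genes). Monosiga Yap-TBD replicate 3 was the highest for 82 (54.3%, against 31.8%) and control replicate 3 for 83 (54.6%, against 40.6%).

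**Figure D1:**
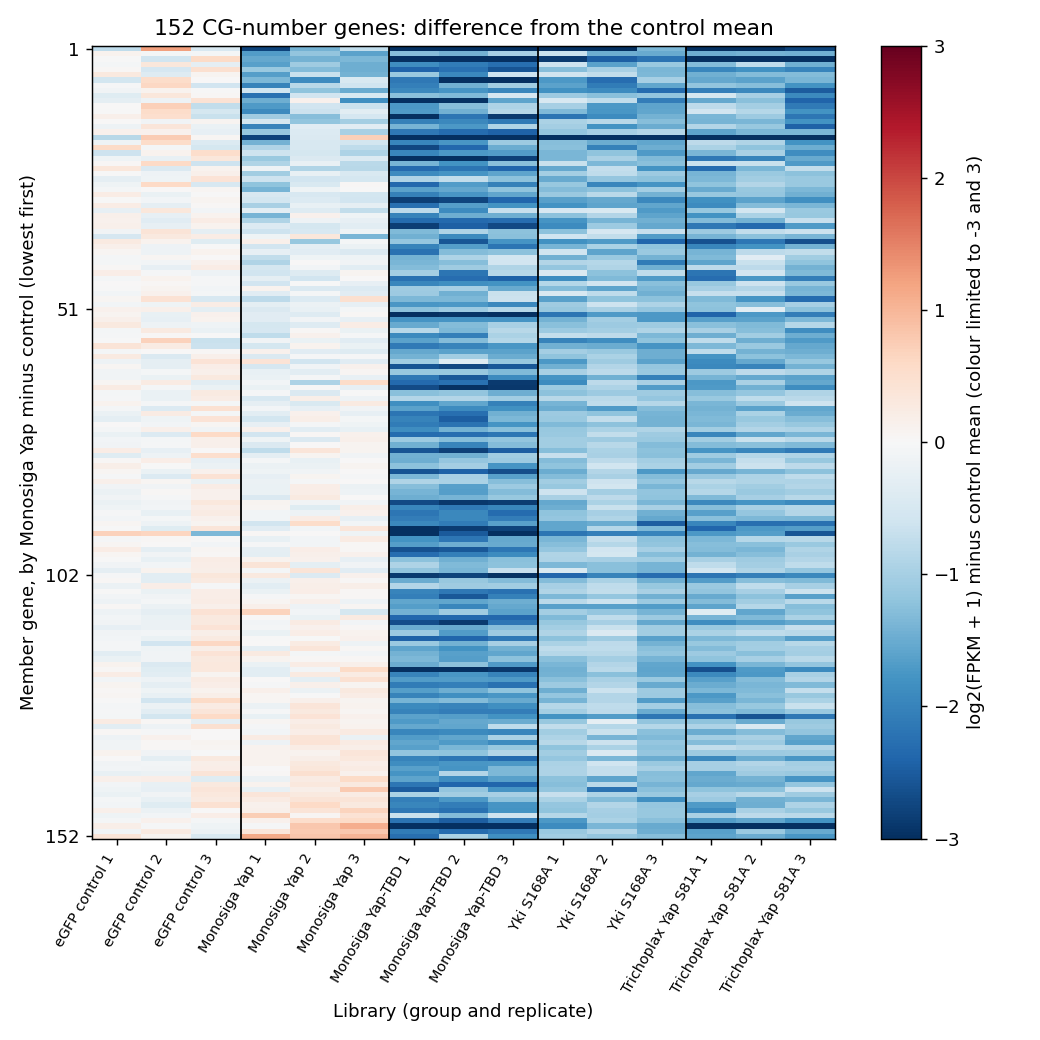
Difference of each library from the control mean on the log2(FPKM + 1) scale (colour) for the 152 genes (lines, ordered by the Monosiga Yap difference) in the 15 libraries (columns). The 9 libraries of the 3 rule constructs lie below the control for every gene by choice of the genes, while most Monosiga Yap values are pale and the darkest columns are those of Monosiga Yap-TBD.

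The genes with the highest control levels show the size of the response. CG13858 (3R 18144467 to 18144676, dm3, reverse strand), a short gene that the current annotation counts as part of its neighbour CG34377, stood at 424, 323.6 and 514.2 FPKM in the control. It was at 38.0, 50.2 and 55.1 FPKM with Monosiga Yap-TBD, at 151.8, 236.5 and 136.3 with Yki S168A, and at 65.4, 125.7 and 108.4 with Trichoplax Yap S81A. The lowest Yki S168A library lay above the highest library of either other construct. CG34377 itself, which lies 27 bases away on the same strand, stood at 141.6 ± 35.5 FPKM (SD, n = 3) in the control. It stood at 18.02 ± 1.49, 58.7 ± 15.5 and 36.8 ± 9.48 FPKM with the 3 constructs in the same order. The pair shares 1 current gene and is therefore not 2 independent genes. CG31291 with CG34275 and CG15207 with CG11203 are likewise pairs that share 1 current gene.

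CG9336 (bero; 2L 20859169 to 20861017), which encodes a small Ly6-like membrane protein of neurons, and CG31676, 9986 bases away on the same strand, differed less from the control. CG9336 stood at 423.9, 263 and 396 FPKM in the control, and at 131.1, 170.2 and 125.1 FPKM with Monosiga Yap-TBD. It stood at 152.5, 182.9 and 128.4 FPKM with Yki S168A and at 102.9, 148.9 and 138.1 FPKM with Trichoplax Yap S81A. The 3 constructs overlapped for this gene, at 2.54-, 2.33- and 2.78-fold lower than the control. CG31676 stood at 276.7 ± 70.8 FPKM in the control and at 97.1 ± 15.9, 113.9 ± 28.9 and 100.7 ± 21.8 FPKM with the 3 constructs.

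The largest mean differences from the control were those of CG13071 and CG34247, which lie 176 bases apart on opposite strands of 3L. CG13071 stood at 36.8, 113.0 and 68.8 FPKM in the control. Monosiga Yap-TBD libraries were listed at 0, 2.51 and 0 FPKM, Yki S168A libraries at 4.34, 0 and 5.86, and Trichoplax Yap S81A libraries at 2.18, 2.06 and 0. With Monosiga Yap it stood at 8.78, 48.8 and 109.3 FPKM, a spread as wide as that of the control. CG34247 stood at 12.4, 52.4 and 15.2 FPKM in the control and at 0, 1.11 and 0.486 with Monosiga Yap-TBD. In all, 3 of the 152 genes had a library listed at 0.

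The comparison of Monosiga Yap-TBD with Monosiga Yap asks what the added TEAD-binding domain does. Limma called 134 of the 152 genes lower and 0 higher (background 12.2% of all tested genes lower and 14.3% higher), with a median log2 difference of -1.54. Without adjustment, 142 had p under 0.05 lower and 0 higher. The Monosiga Yap-TBD libraries had chosen the genes as low, so these counts are a description, and no p is given for single genes. In 136 genes every Monosiga Yap-TBD library lay below every Monosiga Yap library, and in 0 above (background 17.5% and 18.3%). Monosiga Yap lay above all 9 libraries of the 3 rule constructs in 115 genes, against 7.8% of all tested genes. The rule had set these 9 libraries below every control library, so a member left near the control tends to lie above them by choice of the genes. Nothing is read from this count.

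CG2269 (2R 5975076 to 5983921) ranked first in this comparison. It stood at 26.9, 23.1 and 21.7 FPKM in the control and at 23.3, 42.3 and 51.8 FPKM with Monosiga Yap. It stood at 0.862, 0.730 and 1.49 FPKM with Monosiga Yap-TBD, a log2 difference of -4.25 ± 0.26 (SE) from Monosiga Yap. The libraries with and without the domain did not overlap, and those of Monosiga Yap lay within or above the control range. CG14516 (superdeath; 3R 24964388 to 24971515) stood at 122.9 ± 29.0 FPKM with Monosiga Yap and 15.6 ± 1.14 FPKM with Monosiga Yap-TBD (log2 difference -2.88 ± 0.19). CG3814 (Lfg, of the Lifeguard family of membrane proteins that restrain cell death) stood at 57.7 ± 3.46 and 12.4 ± 2.30 FPKM (log2 difference -2.14 ± 0.14). CG13928, which overlaps the gene GC on the same strand, stood at 140.3 ± 11.6 and 23.2 ± 1.94 FPKM (log2 difference -2.55 ± 0.17).

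With Monosiga Yap alone, most of the genes lay near the control, more of them below it than above. Their median log2 difference was -0.12 (quartiles -0.34 and 0.04), against -0.02 (quartiles -0.14 and 0.10) over all tested genes. Of 152 group means, 99 lay within 0.3 of the control, a share not computed for all tested genes. Limma called 4 genes lower (2.63%) and 0 higher (background 0.0977% lower and 0.228% higher). Without adjustment, 23 had a limma p under 0.05 lower and 3 higher, with no background computed. Every Monosiga Yap library lay below every control library for 24 genes (15.8%) and above for 4 (2.63%). Of all tested genes, 3.61% and 3.69% did so. The comparison shares its control libraries with the rule, which kept genes whose control libraries were high. No member was called when control replicate 1, control replicate 3 or Monosiga Yap replicate 3 was left out, and 1 or 2 were called without control replicate 2, Monosiga Yap replicate 1 or 2, Monosiga Yap-TBD replicate 1 or Trichoplax Yap S81A replicate 2.

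CG13032 (3L 16667064 to 16669364) stood at 4.35, 3.76 and 3.72 FPKM in the control and at 0.555, 1.19 and 0.616 FPKM with Monosiga Yap. The difference was -1.48 ± 0.24 on the log2 scale (limma adjusted p = 0.0145, 0.00405 to 0.099 under the alternatives). The 3 rule constructs stood at 1.11 ± 0.32, 1.22 ± 0.79 and 0.823 ± 0.031 FPKM, so the gene was as low with Monosiga Yap as with them. CG11029 (2L 5746277 to 5747620), which overlaps CG11030 on the same strand, stood at 20.5, 13.5 and 31.1 FPKM in the control. With Monosiga Yap it stood at 6.40, 7.07 and 7.51 FPKM (log2 difference -1.43 ± 0.26, limma adjusted p = 0.0268, 0.00826 to 0.187 under the alternatives). With Monosiga Yap-TBD it was lower again, at 0.942, 1.53 and 1.47 FPKM.

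CG34391 (DIP-delta; 3L 5424732 to 5433143), an immunoglobulin-domain receptor that pairs with a Dpr protein at synapses, stood at 7.06, 4.55 and 9.96 FPKM in the control. It stood at 2.67, 2.19 and 1.85 FPKM with Monosiga Yap (log2 difference -1.29 ± 0.23, limma adjusted p = 0.0291, 0.0111 to 0.327 under the alternatives). CG15449 (X 20910541 to 20911632) stood at 86.5, 98.8 and 92.4 FPKM in the control and at 61.1, 39.6 and 32.3 FPKM with Monosiga Yap (log2 difference -1.09 ± 0.21, limma adjusted p = 0.0461, 0.0079 to 0.245). None of these 4 genes had a Monosiga Yap library inside the control range. CG42662, at 7.52 ± 1.89 and 2.26 ± 0.68 FPKM, missed the threshold (limma adjusted p = 0.0575).

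In all, 19 of the 152 genes had a Monosiga Yap mean at least 0.8 below the control, by a size set after the values were seen. Their longest annotated transcript had a median of 1241 bases, against 2329 bases in the other members (117 of 133 with an annotated transcript) and 1754 bases in all tested CG-number genes. More than 1 annotated transcript was listed for 31.6% of the 19 and 60.7% of the others. Transcript lengths came from the current annotation, not the one behind the FPKM values, and no test was made of these differences.

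**Figure D2:**
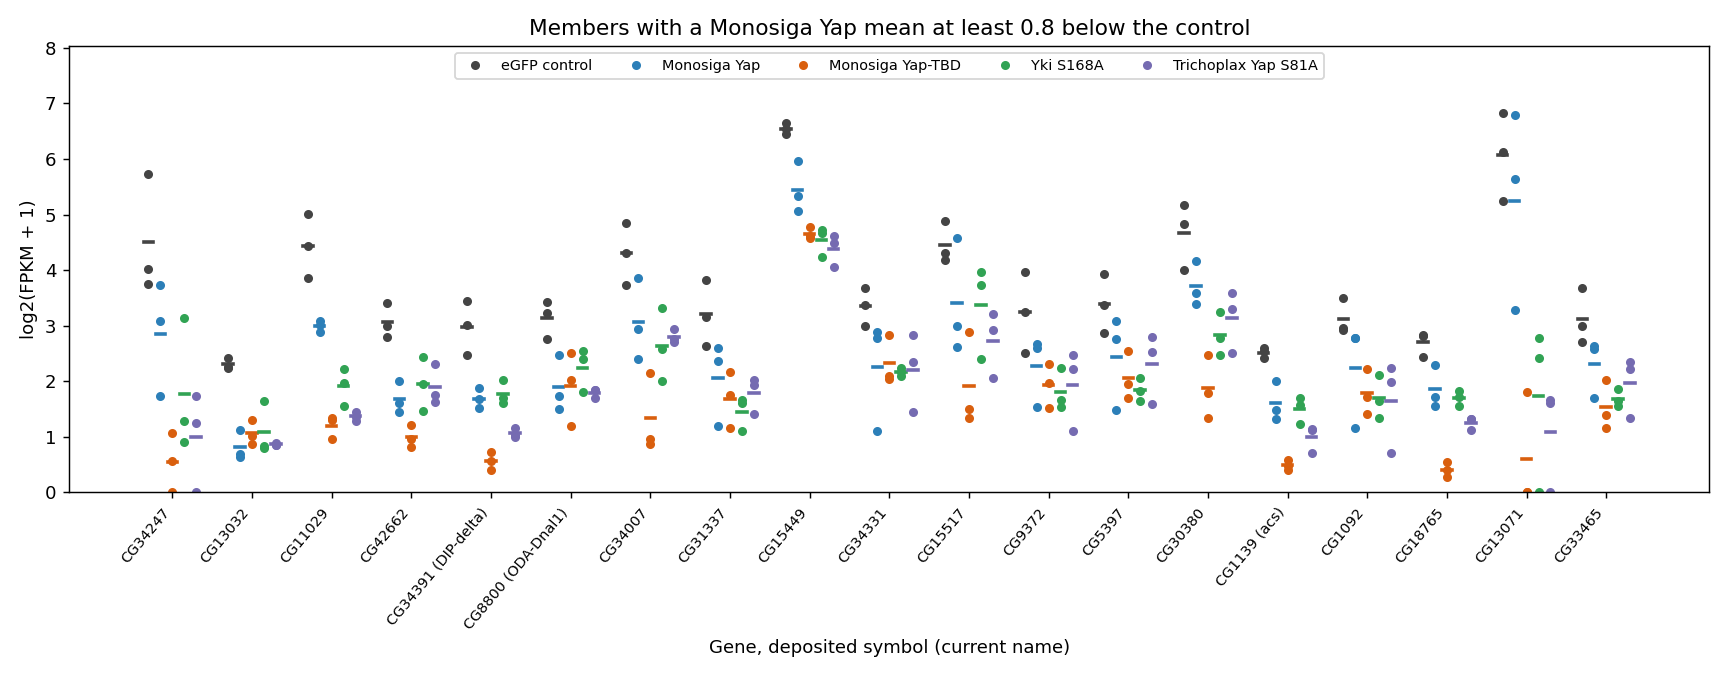
Level on the log2(FPKM + 1) scale of the 19 genes whose Monosiga Yap mean lay at least 0.8 below the control, ordered by that difference; points are libraries, bars the mean of 3. CG13032, CG11029, CG34391 and CG15449 were called by limma, and in CG13071 the Monosiga Yap libraries spread as widely as the control.

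The opposite pattern, higher than every control library with Monosiga Yap, was found for CG31291, CG8216 (spab), CG9747 and CG42337, and limma called none of them. CG9747 (3R 26011142 to 26016799), of the acyl-CoA desaturase family, stood at 15.03, 11.9 and 7.86 FPKM in the control. It stood at 25.8, 20.6 and 23.7 FPKM with Monosiga Yap (2.02-fold the control mean, log2 difference 0.99 ± 0.28, limma adjusted p = 0.366). It stood at 1.57, 5.29 and 2.39 FPKM with Monosiga Yap-TBD, a side of the control that the rule had fixed. CG8216 stood at 13.97 ± 2.58 FPKM in the control, 22.6 ± 3.87 with Monosiga Yap and 2.26 ± 0.24 with Monosiga Yap-TBD (limma adjusted p = 0.463 for Monosiga Yap against the control).

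Among the 3 rule constructs, levels were most often lowest with Monosiga Yap-TBD. Limma called 48 of the 152 genes lower with Monosiga Yap-TBD than with Yki S168A and 0 higher (background 3.74% lower and 3.39% higher). The median log2 difference was -0.51, and 132 genes lay on the lower side. Every Monosiga Yap-TBD library lay below every Yki S168A library for 73 genes and above for 0 (background 12.9% and 12.7%). Against Trichoplax Yap S81A it called 33 lower and 0 higher (background 3.33% lower and 2.98% higher), with a median of -0.44 and 134 genes on the lower side. The libraries of this pair did not overlap for 72 genes on the lower side and 1 on the higher side (background 13.3% and 10.9%). The rule set the same threshold for each construct and did not set the constructs against each other, though all of these libraries entered it. The counts and p-values between these constructs, here and below, therefore describe genes chosen on the same libraries. The second count is sensitive to single libraries: it was 17 without Monosiga Yap-TBD replicate 1, 20 without replicate 2, and 16 and 19 without Trichoplax Yap S81A replicates 2 and 3. Without Trichoplax Yap S81A replicate 1, the library with fat body transcripts, it was 30. The first count fell to 31 without Yki S168A replicate 2.

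**Figure D3:**
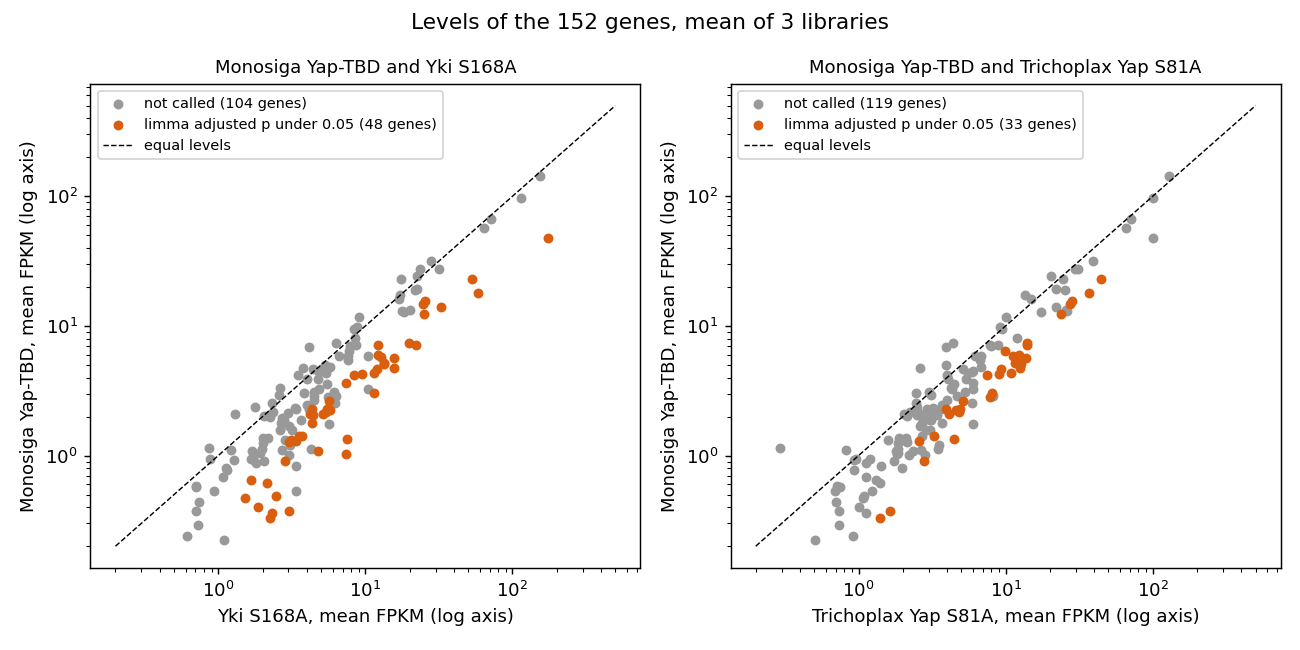
Mean FPKM of the 152 genes with Monosiga Yap-TBD (vertical) against Yki S168A (left, horizontal) and Trichoplax Yap S81A (right, horizontal), on log axes, with equal levels as a dashed line. Coloured points are the 48 and 33 genes with a limma adjusted p under 0.05, all of which lie below the line.

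CG4666 (X 5970100 to 5971515) had the lowest p against Yki S168A. It stood at 3.47, 2.70 and 2.87 FPKM with Monosiga Yap-TBD, at 12.5, 14.1 and 7.98 FPKM with Yki S168A and at 7.86, 9.57 and 6.84 FPKM with Trichoplax Yap S81A. The difference from Yki S168A was -1.61 ± 0.20 on the log2 scale (limma adjusted p = 0.000143). CG17341 (2L 14156326 to 14159075) stood at 0.374 ± 0.103 FPKM with Monosiga Yap-TBD and at 3.02 ± 0.90 with Yki S168A, from 8.79 ± 1.998 in the control (log2 difference between the constructs -1.53 ± 0.20, limma adjusted p = 0.000218). Neither gene had overlapping libraries between these constructs.

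CG5375 (Schip1; 2L 10328347 to 10331116), which recruits the kinase Tao to the Hippo pathway, had the lowest p against Trichoplax Yap S81A. It stood at 25.1, 22.0 and 29.4 FPKM in the control and at 5.66, 4.91 and 4.56 FPKM with Monosiga Yap-TBD. It stood at 13.0, 14.8 and 12.4 FPKM with Yki S168A and at 10.5, 12.1 and 15.7 FPKM with Trichoplax Yap S81A. The log2 differences were -1.18 ± 0.16 from Trichoplax Yap S81A (limma adjusted p = 0.000482) and -1.25 ± 0.16 from Yki S168A (adjusted p = 0.000269). CG9363 (GstZ2, a zeta-class glutathione transferase) stood at 14.8 ± 2.502 FPKM with Monosiga Yap-TBD and 27.4 ± 3.41 with Trichoplax Yap S81A (limma adjusted p = 0.000857). In the same order CG6495 stood at 4.30 ± 0.48 and 10.945 ± 1.36 FPKM (limma adjusted p = 0.00142). Lfg stood at 12.4 ± 2.30 and 23.8 ± 2.26 FPKM (CG3814, limma adjusted p = 0.00115).

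Few of the genes were called between Trichoplax Yap S81A and Yki S168A. Limma called 1 lower with Trichoplax Yap S81A and 0 higher (background 0.163% lower and 0.347% higher), and 16 lower and 3 higher had an unadjusted p under 0.05. Their libraries did not overlap for 14 genes on the lower side and 4 on the higher side (background 4.29% and 6.91%). The called gene was CG2269, at 1.42, 1.93 and 2.09 FPKM with Trichoplax Yap S81A and 5.75, 8.54 and 7.75 FPKM with Yki S168A (log2 difference -1.56 ± 0.26, limma adjusted p = 0.00958). Its libraries did not overlap between the constructs, but the call ended without Trichoplax Yap S81A replicate 1, Yki S168A replicate 2 or Yki S168A replicate 3, with adjusted p up to 0.0644. A missed threshold does not show that the constructs act alike. The median standard error of a log2 difference over all tested genes was 0.193.

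Named genes met the thresholds at a similar rate. Of 4129 tested genes with another symbol, 140 met the same thresholds (3.39%). Limma called 47 of the 140 lower with Monosiga Yap-TBD than with Yki S168A (33.6%, against 31.6% of the CG-number genes) and 38 lower than with Trichoplax Yap S81A (27.1%, against 21.7%). The mirrored rule for raised genes was met by 45 CG-number genes (0.943%) and by 77 genes with other symbols (1.86%).

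Many of the CG numbers have since been given names. Of the 152 genes, 136 were matched to current tables by gene identifier and 14 by an older symbol, and 2, CG30492 and CG30456, were not matched. A name other than a CG number was found for 55. Some of these names stand for known roles, which are given below by group as background and not as a result.

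The groups were formed after the values were seen. Axons, synapses and transmission accounted for 12 genes. Their control means ran from 4.84 to 361.0 FPKM. The median log2 difference from the control was -0.05 with Monosiga Yap, -1.55 with Monosiga Yap-TBD, -1.21 with Yki S168A and -1.44 with Trichoplax Yap S81A, against -0.12, -1.70, -1.17 and -1.28 over all 152. Limma called 12 of the 12 lower with Monosiga Yap-TBD than with Monosiga Yap, where 134 of all 152 members (88.2%) and 12.2% of all tested genes were called. It called 5 lower than with Yki S168A (31.6% of members, 3.74% of all tested genes) and 3 lower than with Trichoplax Yap S81A (21.7% of members, 3.33% of all tested genes).

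CG6024 (loaf; 3L 11726689 to 11759282), which acts in the targeting of photoreceptor R7 and R8 axons, stood at 31.3, 28.7 and 40.9 FPKM in the control and at 33.5, 28.8 and 40.04 with Monosiga Yap. It stood at 5.67, 5.65 and 5.67 FPKM with Monosiga Yap-TBD, 12.6, 19.2 and 15.1 with Yki S168A and 11.96, 12.6 and 16.9 with Trichoplax Yap S81A. Monosiga Yap lay within the control range and Monosiga Yap-TBD lay below all other libraries, with log2 differences of -1.30 ± 0.18 from Yki S168A (limma adjusted p = 0.000515) and -1.14 ± 0.18 from Trichoplax Yap S81A (adjusted p = 0.0016). CG9935 (Ekar), a kainate-type glutamate receptor of the eye, stood at 47.6 ± 8.95 FPKM in the control, 7.33 ± 2.14 with Monosiga Yap-TBD, 19.9 ± 3.91 with Yki S168A and 14.1 ± 1.79 with Trichoplax Yap S81A. CG15630 (fipi), an immunoglobulin-domain protein, stood at 50.95 ± 6.68, 5.22 ± 0.51, 13.3 ± 2.54 and 11.6 ± 2.94 FPKM in the same order.

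The constructs did not always stand in this order. CG16857 (bdl, borderless), an immunoglobulin-domain protein of photoreceptor axon tiling, stood at 24.6, 17.2 and 39.6 FPKM in the control. It stood at 7.81, 7.51 and 6.65 FPKM with Monosiga Yap-TBD, 6.69, 7.41 and 4.92 with Yki S168A, and 4.69, 3.46 and 5.07 with Trichoplax Yap S81A. All 3 Monosiga Yap-TBD libraries lay above the Trichoplax Yap S81A libraries. It was the member of lowest p on the higher side of Monosiga Yap-TBD against Trichoplax Yap S81A, and was not called (log2 difference 0.63 ± 0.26, limma adjusted p = 0.204). CG7433 (Gabat), the GABA transaminase, stood at 41.5 ± 8.33 FPKM in the control. It stood at 16.1 ± 2.10, 17.0 ± 3.31 and 14.8 ± 2.32 FPKM with the 3 constructs, which overlapped. Outside the group of 12, CG4468 (Xport-A), a chaperone that helps rhodopsin and TRP channels leave the endoplasmic reticulum, stood at 39.1 ± 2.37 FPKM in the control and at 7.09 ± 0.57, 12.1 ± 2.62 and 8.91 ± 1.94 FPKM. It was called lower with Monosiga Yap-TBD than with Yki S168A (log2 difference -0.68 ± 0.18, limma adjusted p = 0.0386).

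**Figure D4:**
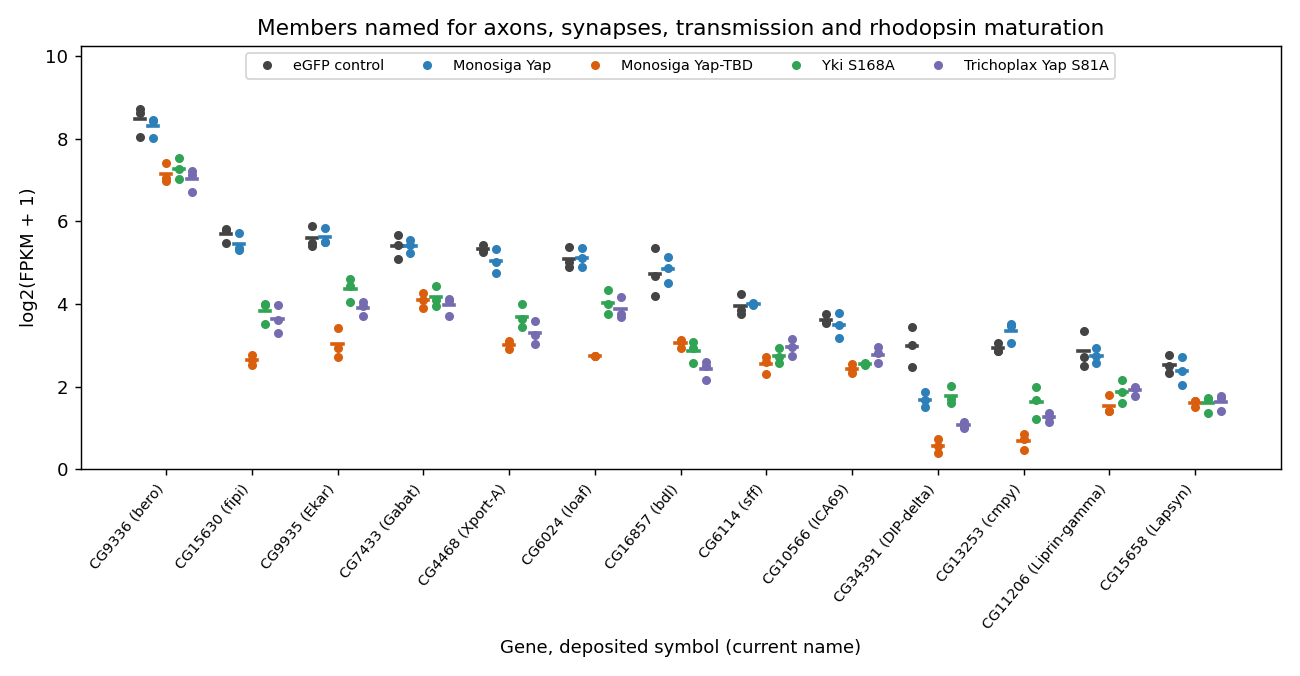
Level on the log2(FPKM + 1) scale of the 12 genes named for axons, synapses and transmission and of Xport-A, ordered by control level; points are libraries, bars the mean of 3. Monosiga Yap lies near the control except for DIP-delta, and loaf, Ekar and fipi are lowest with Monosiga Yap-TBD, while Gabat and bero are not.

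A group of 9 genes is known for signalling and polarity, with control means from 5.37 to 49.8 FPKM. Limma called 9 of the 9 lower with Monosiga Yap-TBD than with Monosiga Yap (88.2% of members, 12.2% of all tested genes). It called 4 lower than with Yki S168A (31.6% and 3.74%) and 4 lower than with Trichoplax Yap S81A (21.7% and 3.33%). CG13830 (Cow, Carrier of Wingless), a secreted carrier of the Wnt ligand Wingless, stood at 51.8, 40.7 and 56.9 FPKM in the control. It stood at 7.35, 6.62 and 7.58 FPKM with Monosiga Yap-TBD, 17.6, 26.5 and 21.6 with Yki S168A and 12.1, 11.7 and 17.9 with Trichoplax Yap S81A. The difference of Monosiga Yap-TBD from Yki S168A was -1.47 ± 0.20 on the log2 scale (limma adjusted p = 0.000428). Frmd5 (CG5022), a FERM-domain protein whose gene lies 13342 bases from Schip1, stood at 8.80 ± 1.18 FPKM in the control and at 2.29 ± 0.50, 4.35 ± 0.54 and 3.96 ± 0.06 FPKM with the 3 constructs.

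Further members act near the Hippo and Wnt pathways. CG4290 (Sik2), a salt-inducible kinase known to promote Yki activity through the Hippo partner Sav, stood at 12.4 ± 1.21 FPKM in the control and at 3.58 ± 1.05, 5.51 ± 1.05 and 4.47 ± 0.13 FPKM. CG3371 (ebd1), a cofactor of β-catenin, stood at 8.49 ± 1.01 FPKM and at 2.48 ± 0.44, 3.99 ± 1.01 and 3.72 ± 0.43 FPKM. CG31660 (smog), a receptor for the ligand Fog, stood at 5.37 ± 1.26 FPKM in the control and 6.75 ± 0.37 with Monosiga Yap. It stood at 2.15 ± 0.09, 2.37 ± 0.48 and 2.24 ± 0.25 FPKM with the 3 constructs. For smog the 3 constructs overlapped, and it was not called between them.

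The homeobox genes CG34340 (Drgx) and CG18139, which the current table counts as Hmx, were low. Drgx stood at 6.38 ± 1.04 FPKM in the control and at 1.38 ± 0.48, 2.19 ± 0.75 and 2.09 ± 0.89 with the 3 constructs. CG18139 overlaps the deposited entry for Hmx on the same strand, which met the same thresholds, so these are not independent. Of 4 genes of cilia and centrosomes, limma called 2 lower with Monosiga Yap-TBD than with Monosiga Yap (88.2% of members, 12.2% of all tested genes). It called 0 lower than with Yki S168A (31.6% and 3.74%) or Trichoplax Yap S81A (21.7% and 3.33%). With 4 genes, nothing is read from these counts. Their median log2 difference from the control was -0.46 with Monosiga Yap, against -0.12 over all members. CG9170 (Cep164), of the appendages of centrioles, stood at 24.1 ± 6.50 FPKM in the control. It stood at 15.6 ± 0.46 with Monosiga Yap and at 11.8 ± 2.23, 9.03 ± 1.27 and 9.99 ± 1.21 FPKM with the 3 constructs. CG1625 (dila), of the base of cilia, stood at 2.42 ± 0.52 FPKM in the control and below 1 FPKM in all 9 libraries.

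The 13 genes of lipids, transport and enzymes had control means from 3.91 to 62.8 FPKM, and 12 of them were called lower with Monosiga Yap-TBD than with Monosiga Yap (88.2% of members, 12.2% of all tested genes). Of the 13, 4 were called lower than with Yki S168A (31.6% of members, 3.74% of all tested genes). Against Trichoplax Yap S81A, 1 was called lower (21.7% and 3.33%). CG42492 (OtopLa), a proton channel, stood at 17.0 ± 5.34 FPKM in the control and at 3.60 ± 0.49, 7.41 ± 0.93 and 6.004 ± 1.93 with the 3 constructs. CG3940 (CAH7, a carbonic anhydrase) went the other way among the constructs, at 6.91 ± 2.43, 4.16 ± 1.33 and 3.96 ± 1.30 FPKM from 13.2 ± 3.81 in the control. It was not called (limma adjusted p = 0.309 against Yki S168A and 0.28 against Trichoplax Yap S81A). CG2016 (Jhbp2), of a family of carriers of juvenile hormone, was uneven in the control, at 26.8, 25.9 and 5.72 FPKM. CG31619 (nolo), an ADAMTS-like secreted protein, stood at 19.0 ± 4.35 FPKM in the control and at 1.34 ± 0.45, 7.52 ± 1.38 and 4.43 ± 1.33 with the 3 constructs. Its difference between Monosiga Yap-TBD and Yki S168A was -1.87 ± 0.25 on the log2 scale (limma adjusted p = 0.00028).

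Marker lists of the cell types in the disc moved with the same constructs, and their part in the members' fall was not tested. No member stands on a list under its deposited symbol. CG16857 is on the glial list by its current name, bdl, and was not matched there, so the glial counts leave it out. Over all tested genes, limma called 12.0%, 6.52% and 6.09% lower than the control with Monosiga Yap-TBD, Yki S168A and Trichoplax Yap S81A. With Monosiga Yap it called 0.0977% lower and 0.228% higher. The share called higher with the 3 constructs is not given here. Of 31 tested genes of photoreceptor specification, limma called 19 lower and 2 higher with Monosiga Yap-TBD against the control, 14 and 2 with Yki S168A, 13 and 2 with Trichoplax Yap S81A, and 0 with Monosiga Yap. Of 23 genes of neuronal differentiation it called 14 lower and 2 higher, 9 and 1, and 9 and 2 with the 3 constructs. Of 13 cone and pigment cell genes it called 10, 5 and 6 lower and 0 higher. The median log2 differences of the cone and pigment list were -1.41, -0.27 and -0.33, and those of the photoreceptor list -0.78, -0.67 and -0.64. They are not set against the member medians, since the members were chosen as low and the lists were not. The summed level of the photoreceptor list was 1288 to 1541 FPKM in the control, 1264 to 1400 with Monosiga Yap, 944 to 967 with Monosiga Yap-TBD, 968 to 1026 with Yki S168A and 990 to 1186 with Trichoplax Yap S81A. That of the neuronal list was 1453 to 1969, 1775 to 1830, 1044 to 1162, 1174 to 1381 and 1336 to 1496 FPKM in the same order of groups.

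Single markers differed in their pattern. The receptor gene sev, of the R7 photoreceptor and cone cells, stood at a mean of 115.0 FPKM in the control, 102.8 with Monosiga Yap, 9.38 with Monosiga Yap-TBD, 14.5 with Yki S168A and 14.97 with Trichoplax Yap S81A. The neuronal gene elav stood at 49.3, 48.2, 14.9, 24.3 and 25.3 FPKM. The photoreceptor regulator gl stood at 113.0, 100.8, 28.1, 63.0 and 69.5 FPKM. The glial gene repo stood at 24.7, 29.9, 12.3, 13.6 and 18.1 FPKM. These 4 were lowest with Monosiga Yap-TBD. The retinal determination gene dac stood at 49.8, 45.9, 47.5, 39.6 and 50.6 FPKM and the hemocyte gene Hml at 6.35, 3.74, 2.47, 2.30 and 3.19 FPKM, both lowest with Yki S168A. The retinal determination genes eya and so differed from dac and were lowest with Monosiga Yap-TBD. In the same order of groups, eya stood at 155.0, 147.2, 81.4, 118.1 and 85.0 FPKM. The gene so stood at 98.2, 87.3, 54.5, 95.2 and 72.5 FPKM.

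Lists of other cell types had fewer calls. Over all tested genes the shares called lower with the 3 constructs were 12.0%, 6.52% and 6.09%, and small counts in short lists are not read further. Of 9 tested glial genes, 3, 2 and 1 were called lower and 1, 0 and 1 higher with Monosiga Yap-TBD, Yki S168A and Trichoplax Yap S81A. Their median log2 differences were -0.24, -0.02 and -0.21. The glial list did not fall in sum as repo did. It summed to 448.8 to 486.4 FPKM in the control and 473.4 to 506.4 with Monosiga Yap. With the 3 constructs it summed to 491.8 to 535.3, 428.6 to 477.1 and 490.4 to 520.4 FPKM. Of 9 hemocyte genes, 3, 2 and 0 were called lower, with median log2 differences of -0.94, -1.15 and -0.88, and of -0.61 with Monosiga Yap. Their summed level was 121.1 to 148.6 FPKM in the control, 71.3 to 111.7 with Monosiga Yap, 49.0 to 65.7 with Monosiga Yap-TBD, 77.2 to 87.3 with Yki S168A and 83.3 to 104.0 with Trichoplax Yap S81A, so all 4 groups lay below the control range. Of 10 genes of retinal determination, 4, 1 and 2 were called lower and 0, 1 and 1 higher. Of 9 cuticle genes, 0 were called lower and 3, 1 and 2 higher, and 1 cuticle gene outside the tested ones was listed at 0 throughout. Of 5 fat body genes, 0 were called. Of 7 muscle genes, 1 was called lower with Monosiga Yap-TBD. Of 13 known Yki targets, 10, 10 and 9 were called higher and 0 lower with the 3 constructs, and 1 higher with Monosiga Yap.

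The members were spread over the genome. They lay on 2L (30), 2R (28), 3L (37), 3R (31), 4 (2) and X (24), which is 2.65% to 3.78% of the tested CG-number genes of each large arm and 6.9% of the 29 on chromosome 4. Within 20 kb of another member lay 28 genes, in 15 pairs. Among the pairs are CG34377 with CG13858, CG31291 with CG34275 and CG15207 with CG11203, which each share 1 current gene. CG7646 and Gabat lie 1801 bases apart on opposite strands. Another gene overlapped 45 members, 34 of them on the other strand and 14 on the same strand. Pairs and overlaps were not counted for the other tested genes, so neither count is read as clustering or spread. For 5 of the 45 the overlapping gene met the thresholds too, among them CG34189 with unc-104 and CG17122 with gogo. The labels do not state whether strand was kept, so the reads of overlapping genes cannot be told apart.

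The authors' deposited table of natural log ratios comes from the same libraries, so its direction for the 3 rule constructs follows from the choice of the members. In the authors' deposited table, 150 of 152 members lay below 0 with Monosiga Yap-TBD, 152 with Yki S168A, 150 with Trichoplax Yap S81A and 102 with Monosiga Yap. The authors' deposited table has a p under 0.05 on the lower side for 141, 134, 133 and 9 members in the same order, against 11.5%, 7.57%, 7.82% and 1.22% of all tested genes. The first 3 counts rest on the contrasts of the rule, and the last shares its control libraries with it. CG14042 and CG8214 (Cep89) are the exceptions with Monosiga Yap-TBD, at 0.283 and 0.303 in the authors' deposited table. The deposited FPKM values of the same genes were lower, from 16.8 ± 4.60 to 2.53 ± 0.27 for CG14042 and from 6.22 ± 1.52 to 1.14 ± 0.98 for CG8214. CG30492 and CG8214 are listed at 0 with p = 1 for Trichoplax Yap S81A in the authors' deposited table, so the deposited tables disagree for these 3 genes.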

How the data were processed

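RNA-seq of 15 libraries, 3 per group, was analysed from values deposited by the authors. The submitters' processing notes name CASAVA 1.7.0, TopHat 1.0.14, Cufflinks and Cuffdiff 1.0.2 with genome build dm3, without their roles, and neither the annotation nor the strand setting is given in the sources used here. The FPKM values deposited by the authors are scaled to transcript length and library size, and further scaling is not stated. A second table deposited by the authors holds the natural log ratio of each construct over the control and a p-value for each. It also holds adjusted values deposited by the authors, which exceed 1 in places and are regarded as a score here, and a mean level on the log2 scale deposited by the authors. The score and the mean level were not used here.

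FPKM values are not counts, so log2(FPKM + 1) was tested with limma 3.58.1 (R 4.3.3; trend and robust empirical Bayes, 10 residual degrees of freedom, all 5 groups in the fit), two-sided, over the 9213 genes that reached an FPKM of 1 in 3 or more libraries. Genes with a Benjamini-Hochberg adjusted p under 0.05 over all tested genes were called, and the background is the percentage of all tested genes called. The test was also run on simulated data, and that result is not given here. Fold changes compare mean FPKM, and errors give the SD of 3 libraries or the SE of a log2 difference. Depth was estimated from the steps between low FPKM values with a length correction of 200 bases. Other steps used python 3.11.15, numpy 2.4.6, pandas 2.3.3 and matplotlib 3.10.9.

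The members and all gene lists were chosen with earlier results of these data known. A rule named the members with the highest control level, the largest fall, the lowest adjusted p in each tested comparison, a place next to the threshold or within 20 kb of another member, or a current name. Role groups, and members named beyond that rule, were chosen after their values were seen. The alternatives were other pseudocounts, filters, normalization, model settings, thresholds and the leaving out of each library. Similarity between proteins and promoter motifs were planned and not analysed here.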

Additional observations from a re-analysis of the deposited data

How the results depend on the processing

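The number of genes that meet the rule moved from 152 to 230 with a threshold of 0.6, and lay between 138 and 184 when 1 library was left out. It was 189 and 219 with pseudocounts of 0.5 and 0.1, where all 152 remained, 102 with a threshold of 1, and 137 after quantile normalization, with 128 shared. The 4 members called with Monosiga Yap became 1 with a pseudocount of 0.1, 2 with a mean FPKM of at least 2, 0 with only the groups compared and 1 after quantile normalization, and 0 to 4 when 1 library was left out. With 1 library left out, the number called with Monosiga Yap-TBD was 122 to 135 against Monosiga Yap, 31 to 51 against Yki S168A and 16 to 35 against Trichoplax Yap S81A. For Trichoplax Yap S81A against Yki S168A it was 0 to 1. Over the other alternatives these counts were 122 to 134, 32 to 56, 23 to 38 and 1. The cause of these changes was not tested.

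Replicate numbers did not pair the libraries: 6 of 30 pairs with the same number had correlated deviations over 0.1 (range -0.40 to 0.32), and 3 of 15 libraries correlated best with their own number. With the replicate number as a block, limma called 3 members with Monosiga Yap, 133 for Monosiga Yap-TBD against Monosiga Yap, 43 against Yki S168A, 31 against Trichoplax Yap S81A and 1 for Trichoplax Yap S81A against Yki S168A. Among 459 values of 20 gene comparisons under alternatives, 409 stayed on the same side of the threshold, 47 lost the call, 3 gained it and 0 changed direction. Values under 1 FPKM rest on few fragments in short transcripts, and the pseudocount of 1 understates their fold change. With 3 libraries per group no test for outlying libraries was made.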
